A study of Mus musculus with 10 samples.

Results

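The 10 genes described here encode enzymes of prostaglandin, thromboxane and leukotriene metabolism and were chosen by name from the 51826 genes listed for each library: Ptgs1, Ptgs2, Tbxas1, Ptges, Ptgis, Ptgds, Hpgds, Alox5, Alox5ap and Hpgd. Each was found once. Their expression was measured by RNA-seq of total RNA after rRNA depletion in inguinal white adipose tissue (iWAT), a subcutaneous fat depot, of male C57BL/6 mice. The F1 mice were 5 weeks old and were the offspring of fathers that had eaten a control diet (F1-CD, 3 mice) or a low-protein diet (F1-LPD, the pLPD offspring, 3 mice). Their mothers, and the offspring themselves after weaning, were given the control diet, and the 3 mice of each F1 group had different mothers. Whether any mice of a group shared a father is not stated. The F0 mice were 10 to 12 weeks old and had eaten the control diet (F0-CD, 2 mice) or the low-protein diet (F0-LPD, 2 mice) themselves. Before the diets were assigned, the colony had been kept on the control diet. Each library came from 1 mouse. Generation, age and library set cannot be told apart.

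Eicosanoids are short-lived signaling lipids made from arachidonic acid that phospholipases release from membranes. The cyclooxygenases PTGS1 and PTGS2 turn it into prostaglandin H2, from which terminal synthases make thromboxane A2 (TBXAS1), prostaglandin E2 (PTGES), prostacyclin (PTGIS) and prostaglandin D2 (PTGDS and HPGDS). The other arm starts with ALOX5, the lipoxygenase of leukotriene synthesis, which needs the membrane protein ALOX5AP (FLAP) to receive its substrate. HPGD ends the signal by oxidizing prostaglandins. In fat, prostaglandin E2 is known to restrain lipolysis, and thromboxane synthase, HPGDS and the ALOX5 pair are best known from macrophages, mast cells and platelets.

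Tbxas1, Ptgs1, Alox5 and Alox5ap were lower in every F1-LPD mouse than in every F1-CD mouse, as were 10.9% of all genes tested. Ptges was called lower in F0-LPD (adjusted p under 0.05 in edgeR), as were 1.32% of genes. The stretches of 250 bases upstream of the RefSeq start (GRCm38.p6) of Tbxas1, Ptgs1, Alox5 and Ptges are printed. They lie at chr6:38918736-38918985 on the plus strand for Tbxas1, chr2:36230176-36230425 on the plus strand for Ptgs1, chr6:116461179-116461428 on the minus strand for Alox5 and chr2:30903298-30903547 on the minus strand for Ptges. Capitals mark exact matches, on either strand, to 5 motifs: the Sp1 box GGGCGG, the PU.1 core GAGGAAG, the cAMP response element TGACGTCA, the E-box CACGTG and the TATA box TATAAA. Each sequence is written 5′ to 3′ on the strand of its gene.
Tbxas1: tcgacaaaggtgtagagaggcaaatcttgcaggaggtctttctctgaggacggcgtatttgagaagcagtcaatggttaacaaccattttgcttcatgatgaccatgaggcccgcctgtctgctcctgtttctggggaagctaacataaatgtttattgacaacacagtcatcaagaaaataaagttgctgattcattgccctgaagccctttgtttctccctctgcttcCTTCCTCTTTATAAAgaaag
Ptgs1: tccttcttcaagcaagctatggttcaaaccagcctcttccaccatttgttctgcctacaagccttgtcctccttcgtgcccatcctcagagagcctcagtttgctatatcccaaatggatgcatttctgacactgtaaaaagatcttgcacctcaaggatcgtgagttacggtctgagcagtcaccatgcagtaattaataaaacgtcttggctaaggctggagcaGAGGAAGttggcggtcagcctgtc
Alox5: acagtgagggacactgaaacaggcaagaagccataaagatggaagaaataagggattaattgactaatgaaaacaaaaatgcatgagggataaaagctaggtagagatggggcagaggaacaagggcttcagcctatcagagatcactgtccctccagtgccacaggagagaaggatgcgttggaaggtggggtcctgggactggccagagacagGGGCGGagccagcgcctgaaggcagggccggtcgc
Ptges: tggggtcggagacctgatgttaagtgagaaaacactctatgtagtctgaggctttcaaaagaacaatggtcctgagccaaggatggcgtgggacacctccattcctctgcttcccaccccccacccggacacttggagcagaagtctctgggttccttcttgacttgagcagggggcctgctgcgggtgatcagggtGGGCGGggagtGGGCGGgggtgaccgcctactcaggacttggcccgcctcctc

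The PU.1 core, named for a transcription factor of myeloid cells, was present once in the windows of Tbxas1 and Ptgs1, and also once in that of Hpgds. It was present in 10.6% of the 32851 windows of the same length in the table. In Tbxas1 it was read on the minus strand and ran into a TATAAA, which was matched on both strands, as overlapping letters, and was present in 12.4% of windows. The Sp1 box was present 2 times in the window of Ptges and once in those of Alox5, Ptgs2 and Hpgd, against 32.7% of all windows. None of the 8 members in the table held a cAMP response element (1.55% of windows) or an E-box (6.02%), and the window of Ptgds held none of the 5 motifs. Ptgis and Alox5ap had no entry. These matches describe letters in these windows and do not show binding. The Tbxas1 and Ptges starts used by RefSeq lie inside the longer gene models of the deposited files. These span chr6:38875404-39084585 for Tbxas1 and chr2:30889471-30929863 for Ptges.

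Libraries held 6351075 to 10044546 exon reads, so that 3 reads, the level below which a gene cannot be told from absent, stood for 0.299 to 0.472 CPM (reads of a gene scaled to library size). This limit covers counting error only. CPM are given on the TMM scale of all 10 libraries. The share of intron reads among the exon and intron reads of protein-coding genes was 36.0 to 37.9% in the 7 libraries of the other 3 groups and 40.7 to 48.4% in F1-LPD, where replicate 1 stood apart at 48.4%. Adipocyte markers were plentiful in every mouse (10670 to 18350 CPM over 7 genes). In such bulk tissue, fewer cells of a type and less RNA per cell cannot be told apart.

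Per length, the members spanned a wide range of levels, given here as the mean of the deposited RPKM (exon reads scaled to exon length and library size) over the 10 mice. Ptges was the most abundant at 11.9 (range 5.97 to 18.5), followed by Hpgd at 5.39 (3.92 to 8.27) and Alox5ap at 4.56 (2.30 to 6.55). Ptgis (1.70), Ptgs1 (1.36), Hpgds (1.19), Alox5 (0.843) and Tbxas1 (0.462) formed the middle of the order. Ptgds (0.184) and Ptgs2 (0.158), the inducible cyclooxygenase, stood at its end. The range of every member overlapped that of its neighbor in this order, while the lowest value of Ptges lay above the highest of Ptgis (2.53). Once protein-coding genes averaging under 1 CPM were set aside, Ptges lay at the 87.7th percentile of the remaining ones by mean RPKM, and Tbxas1 at the 11.6th. Neither is therefore a rank among all protein-coding genes. Within single mice this order could differ: in F0-LPD replicate 2, Hpgd (8.27) and Alox5ap (6.55) were both above Ptges (5.97), and in both F0-CD mice Alox5ap (5.14 and 6.29) was above Hpgd (5.06 and 5.81).

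**Figure D1:**
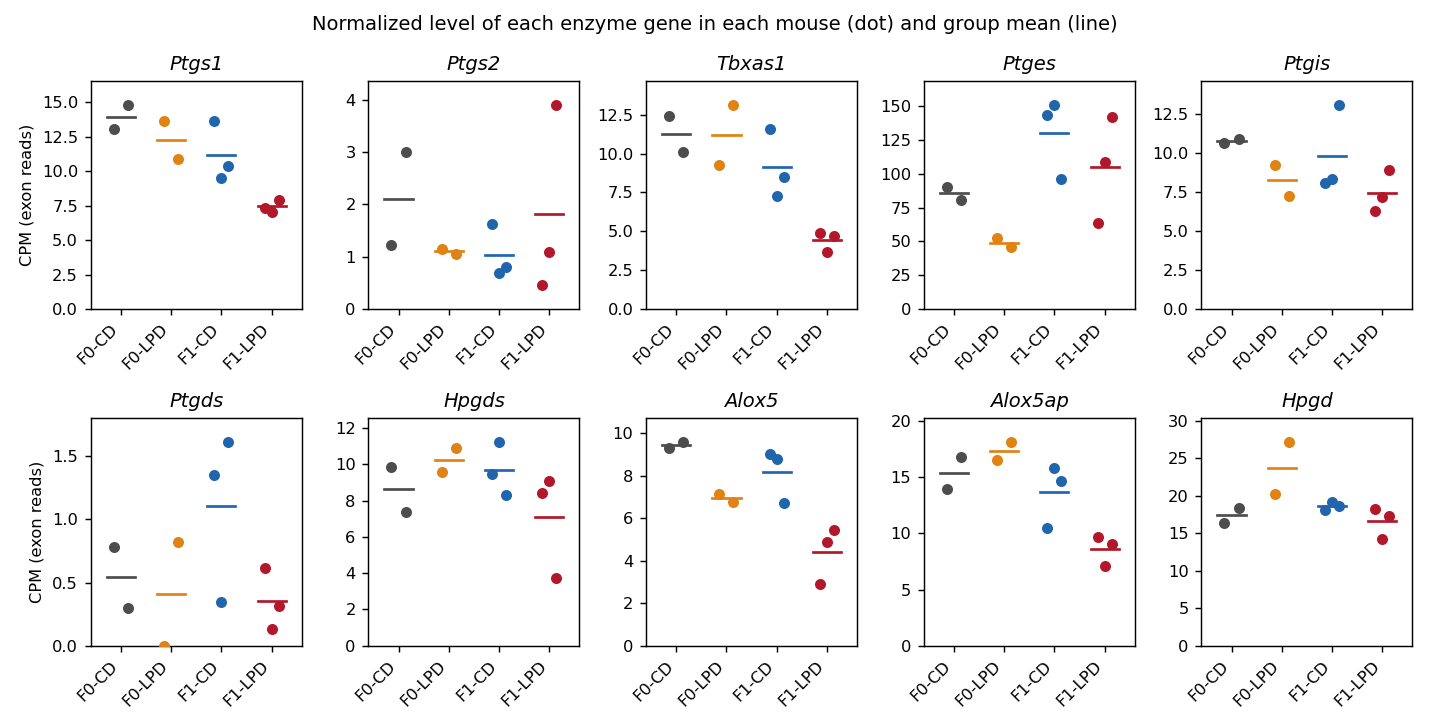
CPM of exon reads (y axis, from 0) of the 10 enzyme genes in each mouse (dots) of the 4 groups (x axis), with the group mean as a line. All 3 F1-LPD mice lay below all 3 F1-CD mice for Ptgs1, Tbxas1, Alox5 and Alox5ap, as in 10.9% of all genes tested. Both F0-LPD mice lay below both F0-CD mice for Ptges, Alox5, Ptgs2 and Ptgis (23.6% of genes) and above for Hpgd (22.8%).

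To determine whether the diet of the father affected these genes in the offspring, the 3 pLPD offspring were compared with the 3 offspring of CD fathers. The 8 members that passed the filter on low counts were all lower on average in pLPD offspring, with a median log2 fold change of −0.50 against 0.01 for all 14049 genes tested. Below 0 lay 48.6% of all genes. No member passed the threshold in edgeR's quasi-likelihood test (adjusted p under 0.05 over all genes), which called 1.17% of genes, and none did in DESeq2. At an unadjusted p under 0.05, 4 members were lower, namely Tbxas1, Ptgs1, Alox5 and Alox5ap, against 8.76% of all genes. The same 4 had every pLPD mouse below every CD mouse, as had 10.9% of all genes. Ptgs2 and Ptgds did not pass the filter.

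Ptgs1, the constitutive cyclooxygenase, was at 13.6, 9.49 and 10.3 CPM in the F1-CD mice and at 7.35, 7.05 and 7.95 CPM in the F1-LPD mice. The pLPD values were tightly grouped and the groups did not overlap. Ptgs1 had a log2 fold change of −0.57 (SE 0.20), with an unadjusted p of 0.0156 and an adjusted p of 0.204 in edgeR. With the share of exon reads as a covariate the log2 fold change was −0.60. Ptgs2 was at 1.62, 0.694 and 0.806 CPM in F1-CD and at 0.459, 1.08 and 3.90 CPM in F1-LPD, on 3 to 25 reads per mouse. Its groups overlapped, and replicate 3 of F1-LPD was the highest of the 6 mice.

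Tbxas1, the thromboxane synthase, had the largest difference among the members tested. The study that reported these libraries had already placed Tbxas1 among the genes lowered in pLPD offspring, at a false discovery rate under 0.05. It used other software, and also reported the fall by qRT-PCR against a reference gene. The place of Tbxas1 is therefore not a separate finding. The exon reads of Tbxas1 numbered 86, 63 and 63 in F1-CD and 32, 27 and 30 in F1-LPD. These correspond to 11.6, 7.29 and 8.47 CPM against 4.90, 3.66 and 4.68 CPM, with means of 9.12 ± 2.23 and 4.41 ± 0.660 (SD, n = 3 each). The highest pLPD mouse was below the lowest CD mouse. This gave a log2 fold change of −1.04 (SE 0.25), a level 0.488 times that of the CD offspring, and the adjusted p was 0.0749 in edgeR. Over the alternatives other than leaving out a mouse, the adjusted p ranged from 0.008 to 0.451, the latter with the share of exon reads as a covariate. It was under the threshold with uniquely matching exon reads (0.0429), with reads of the whole gene (0.0136), without a filter (0.008) and with all 4 groups in 1 fit (0.0402). With any 1 mouse left out it was between 0.0632 and 0.277, and the log2 fold change between −1.18 and −0.83. In the fit with the exon share covariate the log2 fold change was −1.32. That share did not overlap between the F1 groups, so its part and that of the diet cannot be told apart.

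The other terminal synthases showed smaller differences, and the groups of each overlapped. Ptges, which makes prostaglandin E2, was at 144, 151 and 96.5 CPM in F1-CD and at 63.5, 109 and 142 CPM in F1-LPD, a log2 fold change of −0.30 (SE 0.24, adjusted p 0.589 in edgeR). Its values spread more widely in both groups than those of Ptgs1, and its log2 fold change was −0.04 without F1-LPD replicate 1 and −0.58 without F1-LPD replicate 3. With the share of exon reads as a covariate it turned to 0.58 (adjusted p 0.518 in edgeR). Ptgis, the prostacyclin synthase, had a log2 fold change of −0.39 (SE 0.24, adjusted p 0.489 in edgeR), with 8.10, 8.33 and 13.0 CPM against 6.28, 7.19 and 8.88 CPM. It was −0.13 without F1-CD replicate 3 and −0.12 with the exon share covariate. Hpgds, the prostaglandin D synthase of hematopoietic cells, was at 9.44, 11.2 and 8.33 CPM against 8.42, 9.09 and 3.74 CPM, with the lowest value in F1-LPD replicate 3 (log2 fold change −0.43, SE 0.29, adjusted p 0.523 in edgeR). Without that mouse it was −0.14, and −0.82 with the exon share covariate. Ptgds, the lipocalin-type synthase, was at 3 to 12 reads in F1-CD and at 1 to 4 in F1-LPD, too few for a test.

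Both genes of the first leukotriene step were lower. Alox5 was at 9.04, 8.80 and 6.72 CPM in F1-CD and at 2.91, 4.88 and 5.45 CPM in F1-LPD. The groups did not overlap, and the lowest value came from F1-LPD replicate 1, the library with the highest intron share. The log2 fold change was −0.88 (SE 0.27, unadjusted p 0.00772, adjusted p 0.152 in edgeR), and without that library it was −0.65. With the share of exon reads as a covariate it was −0.16. Alox5ap, which presents arachidonic acid to ALOX5, was at 10.5, 15.9 and 14.7 CPM against 9.65, 7.05 and 9.04 CPM, again without overlap. Its log2 fold change was −0.67 (SE 0.21, adjusted p 0.148 in edgeR), −0.76 without F1-LPD replicate 1 and −0.79 with the exon share covariate. Alox5 and Alox5ap were under the threshold only in the fit without a filter on low counts (adjusted p 0.047 and 0.0393).

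Hpgd, the prostaglandin-degrading dehydrogenase, differed least. It was at 18.1, 19.1 and 18.7 CPM in F1-CD and at 18.2, 14.2 and 17.3 CPM in F1-LPD, and the groups overlapped. The log2 fold change was −0.16 (SE 0.14, adjusted p 0.624 in edgeR), and −0.31 with the exon share covariate.

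**Figure D2:**
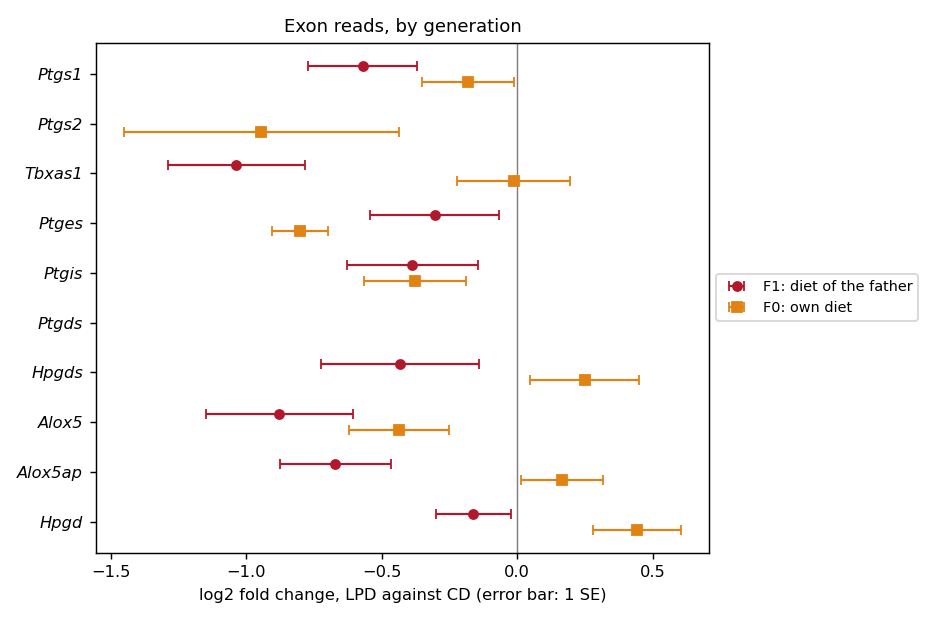
Log2 fold change of exon reads, LPD against CD (x axis), for each enzyme gene (y axis) in F1 by the diet of the father (circles) and in F0 by their own diet (squares), with bars of 1 SE. All 8 members tested in F1 lie below 0, from −1.04 for Tbxas1 to −0.16 for Hpgd, while in F0 the values run from −0.95 for Ptgs2 to 0.44 for Hpgd.

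Intron reads, which come largely from unspliced RNA and do not enter the exon counts, gave a separate readout of the same mice. Tbxas1 was the member with the most of them: 83.3% of its reads lay in introns. Its intron reads numbered 269, 325 and 297 in F1-CD and 150, 145 and 145 in F1-LPD, or 56.3, 59.0 and 61.9 CPM against 30.8, 28.7 and 36.8 CPM. The groups were far apart relative to their spread. The log2 fold change was −0.89 (SE 0.12, p 1e-05, adjusted p 0.0169 in edgeR), so that Tbxas1 passed the threshold in the lower direction with 0.26% of the 13456 genes tested. The adjusted p over the 5 alternatives without a mouse left out was 1.29e-07 to 0.0137. It was 0.0782 without F1-CD replicate 2 and 0.0747 without F1-LPD replicate 2, neither past the threshold, and 0.0455 without F1-LPD replicate 1. The exon share covariate and the fit of all 4 groups were not run on intron reads. The higher intron share of the F1-LPD libraries was therefore not adjusted for in this call.

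All 8 members tested had a log2 fold change below 0 in the intron reads as well, against 50.4% of all genes, and the median was −0.48. Tbxas1, Ptgs1, Hpgds and Alox5ap had every pLPD mouse below every CD mouse, as had 9.71% of genes. Ptgs1 had 40, 53 and 37 intron reads in F1-CD and 15, 24 and 18 in F1-LPD, with a log2 fold change of −1.06 (SE 0.28, adjusted p 0.118 in edgeR). Alox5ap had 34, 44 and 32 against 10, 24 and 12, with a log2 fold change of −1.13 (SE 0.34, adjusted p 0.153 in edgeR). Hpgds, whose exon groups overlapped, did not overlap in introns, with 142, 156 and 132 reads against 99, 116 and 80. Its log2 fold change was −0.43 (SE 0.13, adjusted p 0.176 in edgeR). The remaining members tested were at −0.52 (Alox5), −0.44 (Ptges), −0.38 (Hpgd) and −0.17 (Ptgis), with overlapping groups. Intron shares were higher in every pLPD library, and their part in these values was not tested.

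**Figure D3:**
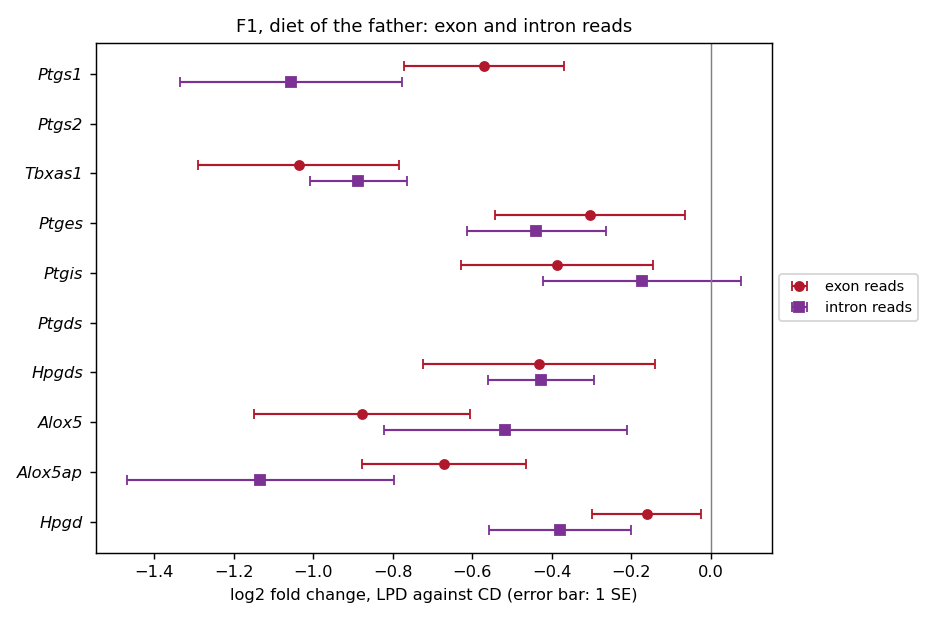
Log2 fold change between pLPD offspring and offspring of CD fathers (x axis) for each enzyme gene (y axis), from exon reads (circles) and intron reads (squares), with bars of 1 SE. Tbxas1 is at −1.04 in exons and −0.89 in introns, and all 8 members tested are below 0 in both.

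Other genes lie close enough to some members to share reads, and the setting for strand in the counting is not given in the sources used here. The 5′ ends of Tbxas1 and of Hipk2, a kinase gene on the other strand, overlap over 762 bases, and Hipk2 had 41482 exon reads in the 10 libraries. An antisense gene, Gm42962, covers 32.1% of the span of Tbxas1 but had 8 reads in all. Alox5ap overlaps the antisense gene Gm19719 over 5117 bases, and Gm19719 had 76 reads in all. Of the exon reads, 95.4% matched uniquely for Tbxas1, 90.3% for Ptges and 81.7% for Alox5ap. With uniquely matching exon reads, the F1 log2 fold change was −1.13 for Tbxas1 and −0.58 for Alox5ap.

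To see whether the low-protein diet had a like effect in the males that ate it, the 2 F0-LPD mice were compared with the 2 F0-CD mice. In F0, Ptges was the member that fell, with 1.32% of the 14581 genes tested called lower. It was at 90.5 and 81.0 CPM in F0-CD and at 52.4 and 45.7 CPM in F0-LPD, on 391 to 811 reads per mouse. The groups were clearly separated, and the log2 fold change was −0.80 (SE 0.10, p 3.14e-05, adjusted p 0.011 in edgeR), a level 0.573 times that of the CD males. With 1 mouse left out, the lone mouse of its diet was assumed to vary like the pair of the other, and the adjusted p was 0.00709 to 0.0476. The call held with uniquely matching exon reads (0.00786) and in DESeq2 (0.000277). It was lost in the fit of all 4 groups (0.254), where the spread of the F1 mice enters the test.

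The remaining members did not pass the threshold in F0. Tbxas1, largest in F1, was at 12.4 and 10.1 CPM in F0-CD and at 9.25 and 13.1 CPM in F0-LPD, a log2 fold change of −0.01 (SE 0.21, adjusted p 0.99 in edgeR). The CD values lay between the LPD values. At an unadjusted p under 0.05, Ptges and Alox5 were lower, against 8.2% of genes, and Hpgd was higher, against 7.53%. Alox5 was at 9.29 and 9.59 CPM against 7.14 and 6.78 CPM (log2 fold change −0.44, SE 0.18, adjusted p 0.292 in edgeR). Hpgd was at 16.3 and 18.4 CPM against 20.3 and 27.1 CPM (log2 fold change 0.44, SE 0.16, adjusted p 0.224 in edgeR), and the groups of both genes did not overlap. Without F0-LPD replicate 2 the log2 fold change of Hpgd was 0.22.

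With 2 mice against 2, both LPD mice lay below both CD mice in 23.6% of genes and above in 22.8%, so separation alone says little here. Ptges, Alox5, Ptgs2 and Ptgis were separated in the lower direction and Hpgd in the higher. Ptgis had a log2 fold change of −0.38 (SE 0.19, adjusted p 0.386 in edgeR) and Ptgs2 one of −0.95 (SE 0.51, adjusted p 0.427 in edgeR), the latter on 9 to 30 reads per mouse. Without F0-CD replicate 2 the value of Ptgs2 was −0.15, and without F0-LPD replicate 2 that of Ptgis was −0.22. Ptgs1, Hpgds and Alox5ap overlapped between the diets, with log2 fold changes of −0.18, 0.25 and 0.17. Ptgds had 0 of 9576237 exon reads in F0-LPD replicate 1, which allows a level of up to 0.313 CPM, and 3 to 7 reads in the other 3 mice, and did not pass the filter.

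In the F0 intron reads, no member passed the threshold in edgeR, which called 3.48% of the 14334 genes tested, and none did in DESeq2. Ptges was the only one of the 8 members tested with an unadjusted p under 0.05, against 7.76% of genes in the lower direction. Its intron reads were 196 and 218 in F0-CD and 168 and 123 in F0-LPD, and on the CPM scale they did not overlap. The log2 fold change was −0.42 (SE 0.13, adjusted p 0.147 in edgeR), smaller than in the exon reads, and the difference between both was not tested. Tbxas1 had a log2 fold change of 0.24 (SE 0.11, adjusted p 0.363 in edgeR) in the F0 introns.

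An interaction term, fitted over the 10 libraries, compared the diet effect of F1 with that of F0. No member passed the threshold in edgeR, which called 1.25% of the 15111 genes tested, and none did in DESeq2. At an unadjusted p under 0.05, 3 members had a lower effect in F1 than in F0, against 7.58% of genes. These were Alox5ap, at −0.85 on the log2 scale (SE 0.27, adjusted p 0.173 in edgeR), Tbxas1, at −1.03 (SE 0.34, adjusted p 0.192 in edgeR), and Hpgd, at −0.62 (SE 0.22, adjusted p 0.227 in edgeR). For Tbxas1 the adjusted p was 0.0126 with reads of the whole gene and 0.0375 without a filter. Ptges, called in F0 and not in F1, had an interaction of 0.49 (SE 0.36, adjusted p 0.634 in edgeR), so its effects were not shown to differ.

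Between the CD groups, young F1 offspring against older F0 males, no member passed the threshold in edgeR although 18.9% of genes did, and none did in DESeq2. At an unadjusted p under 0.05, Ptges was higher in F1-CD, as were 17.2% of genes. Its F1-CD mice, at 96.5 to 151 CPM, all lay above the F0-CD mice, at 81.0 and 90.5 CPM (log2 fold change 0.60, SE 0.25, adjusted p 0.116 in edgeR). It passed the threshold without a filter on low counts (adjusted p 3.03e-06), without F1-CD replicate 3 (0.0398) and without F1-LPD replicate 1 (0.028). With reads of the whole gene, Tbxas1 was lower in F1-CD (log2 fold change −0.51, adjusted p 0.00546 in edgeR), against −0.31 with exon reads (adjusted p 0.387).

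The other genes of the pathway were read from a list of 59 phospholipases, synthases, transporters, degrading enzymes and receptors, of which 43 passed the filter in F1. No gene of it passed the threshold there in edgeR or DESeq2. Its median log2 fold change was −0.15, with 27 genes below 0, where 48.6% of all genes lay, and 16 above. At an unadjusted p under 0.05 there were 5 lower and 2 higher, where 8.76% and 6.57% of all genes were. By role, the median was −0.27 for 8 phospholipases, −0.13 for 8 prostanoid synthesis enzymes, 0.06 for 5 leukotriene synthesis enzymes, −0.24 for 3 other lipoxygenases and epoxide enzymes, −0.26 for 11 genes of breakdown and transport and 0.14 for 8 receptors. The receptor for thromboxane A2, Tbxa2r, had a log2 fold change of 0.50 (SE 0.26, adjusted p 0.399 in edgeR), chosen after its value was seen because it reads the product of TBXAS1. In F0, where 1.32% of all genes were called lower, 2 of 43 pathway genes fell, both of breakdown: Cbr2, a carbonyl reductase, by 0.68 on the log2 scale (adjusted p 0.0428 in edgeR), and Dpep1, a dipeptidase that acts on leukotriene D4, by 0.52 (adjusted p 0.0307 in edgeR). DESeq2 called Dpep1 alone, and neither was called with all 4 groups in 1 fit, without F0-CD replicate 2 or without F0-LPD replicate 2. Without F0-CD replicate 1 Dpep1 alone was called, and without F0-LPD replicate 1 Cbr2 alone. Between the CD groups, 11 of 49 pathway genes passed the threshold, 5 higher and 6 lower in F1, against 10.1% and 8.78% of all genes. The smallest adjusted p values were those of Fam213b, Mgst3, Ptger3, Ptges2 and Abcc1, with log2 fold changes of 1.13, −1.10, 1.08, 0.63 and −0.34. Ptges2 encodes another prostaglandin E synthase and Ptger3 a receptor for prostaglandin E2. In the F0 intron reads, 2 of 40 pathway genes were called lower and 2 higher, against 2.12% and 1.36% of all genes. Lower were Mgst1 and Dpep1, with log2 fold changes of −0.62 and −0.97 (adjusted p 0.00493 and 0.0127 in edgeR). Higher were Ephx2 and Ptger3, at 0.59 and 0.48 (adjusted p 0.0109 and 0.0278 in edgeR). DESeq2 called 2 lower and 1 higher. No pathway gene was called in the F1 intron reads.

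Markers of macrophages, one of the cell types in which thromboxane and leukotriene synthesis is known, moved with the diet of the father. Of the 12 macrophage markers listed, Itgam was not found. In pLPD offspring 8 markers were called lower, against 1.02% of all genes. All 11 tested were below 0, with a median log2 fold change of −0.70, where 48.6% of all genes were below 0. Their summed level was 1286 to 1581 CPM in F1-CD and 863 to 1033 CPM in F1-LPD, so that the groups did not overlap. Clec10a fell by 0.83 on the log2 scale (adjusted p 0.0105 in edgeR), Csf1r by 0.54 (adjusted p 0.0155) and Adgre1 by 0.64 (adjusted p 0.0196). The count of macrophage markers called was 10 in DESeq2 and 0 with the share of exon reads as a covariate. It was 0 without F1-CD replicate 1 or F1-LPD replicate 2, 1 without F1-CD replicate 2 and 2 without F1-LPD replicate 1, although all 11 stayed below 0 in each of these fits. In F0 the median of the 11 was −0.20, 2 fell in edgeR (Cd163 and Clec10a), and their sum was 1306 to 1382 CPM against 1191 to 1259 CPM. Neither F0 call held in DESeq2, with total gene reads, with all 4 groups in 1 fit or without F0-CD replicate 2, F0-LPD replicate 1 or F0-LPD replicate 2. Without F0-CD replicate 1, Cd163 alone was called. No macrophage marker was at 0 in any group. The part of macrophage content in the values of Tbxas1, Ptgs1, Alox5 and Alox5ap was not tested.

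Markers of other cells also moved with the father's diet. Of 8 mast cell markers 6 were tested and 1 was called lower (Kit, log2 fold change −0.54, adjusted p 0.0448 in edgeR, a call lost without any mouse but F1-CD replicate 3), and their sum was 59.4 to 74.7 CPM in F1-CD and 48.7 to 55.7 CPM in F1-LPD, with Fcer1a at 0 reads in F1-LPD. Kit was also not called with the share of exon reads as a covariate or with all 4 groups in 1 fit. Platelet markers were 3 of 3 tested below 0, none called, at 21.2 to 34.6 CPM against 16.2 to 19.0 CPM. Markers of fibroblasts and progenitors summed to 6181 to 11180 CPM against 4344 to 5237 CPM, with 5 of 6 below 0, none called in edgeR and 1, Col1a1, in DESeq2. Most of that sum was Col1a1, a collagen gene (8152 against 4158 CPM on average), and the other 5 markers overlapped, at 698 to 895 CPM against 601 to 813 CPM. Epithelial markers, at 8.56 to 12.8 CPM in F1-CD and 0.153 to 3.26 CPM in F1-LPD, held 2 called lower of 3 tested in edgeR (Krt8 and Krt18). Neither was called with the share of exon reads as a covariate or without F1-CD replicate 1 or F1-LPD replicate 1. DESeq2 gave neither an adjusted p. Only 1 was called with uniquely matching exon reads or total gene reads, or without F1-LPD replicate 2 or 3 or F1-CD replicate 2. Smooth muscle and pericyte markers held 1 called lower of 6 and overlapped in sum, as did endothelial markers, with none called of 5. Of the 4 mesothelial markers 1, Krt19, was tested and called lower in edgeR, but not with the share of exon reads as a covariate, without F1-LPD replicate 2 or in DESeq2, which gave it no adjusted p, at 4.59 to 6.45 CPM in sum against 0.312 to 0.919 CPM. Adipocyte markers overlapped, at 10670 to 12020 CPM against 10830 to 12920 CPM, with 5 of 7 above 0, and all 8 lymphocyte markers were above 0 with none called. Neutrophil markers were low and overlapped, at 9.27 to 13.0 CPM in F1-CD and 8.11 to 31.5 CPM in F1-LPD, with Ly6g at 0 reads in both. In F0, 4 of 6 skeletal muscle markers were called lower (2 in DESeq2), at 1359 to 2078 CPM against 656 to 900.3 CPM, beside the fall of Ptges, and in F1 none of the 6 was called. Of the F0 smooth muscle and pericyte markers, Myh11 was called lower (log2 fold change −0.65, adjusted p 0.0164 in edgeR). DESeq2 also called 1 marker of that list lower. Of the F0 lymphocyte markers, Ms4a1 was called higher (log2 fold change 0.46, adjusted p 0.0351 in edgeR), and none was in DESeq2. The part of these cells in the members' values was not tested.

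**Figure D4:**
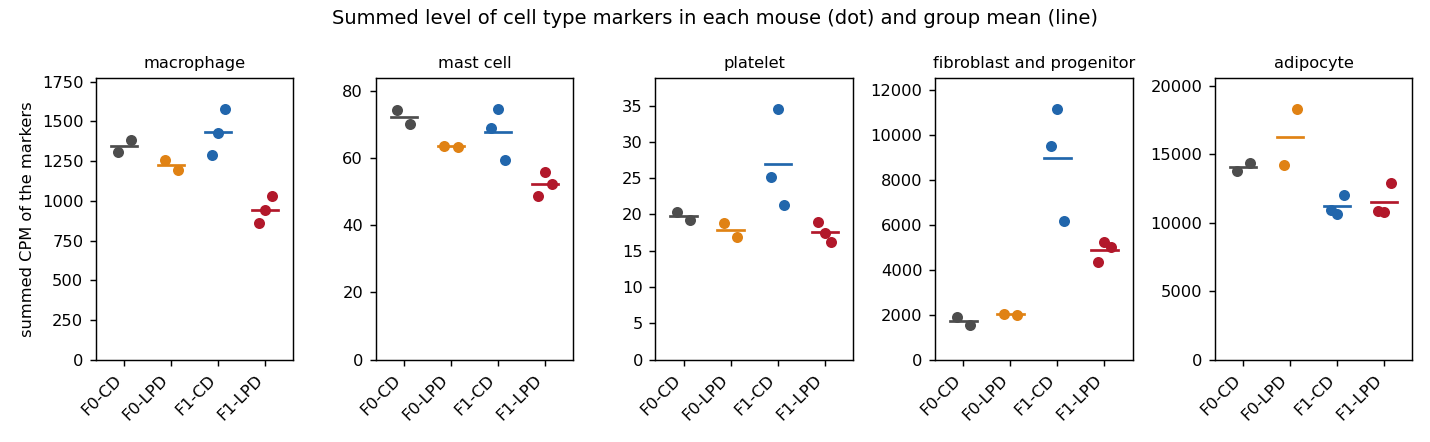
Summed CPM of the markers of 5 cell types (y axes, each from 0) in each mouse (dots) of the 4 groups (x axis), with the group mean as a line. The macrophage sum is 863 to 1033 CPM in the pLPD offspring, below the 1286 to 1581 CPM of the offspring of CD fathers, while the adipocyte sums of both groups overlap.

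Genes with a mean under 1 CPM were left out of a search for genes of similar pattern. Of the other 14568, those most like Tbxas1 across the 10 libraries, by Pearson's r of log2 CPM after each generation was centered on its mean, were Tmco3 (r 0.958), Rfk (0.956) and C5ar2 (0.954). In F1-CD and F1-LPD, Tmco3 averaged 29.36 and 25.96 CPM and Rfk 50.68 and 41.98 CPM. C5ar2, a complement receptor gene, was at 2.20 CPM on average in F1-CD and 0.900 CPM in F1-LPD. Those most like Ptges were Osr2 (r 0.971), Map6 (0.959) and Adap1 (0.957). In F0-CD and F0-LPD, Osr2 averaged 8.21 and 4.46 CPM, Map6 32.9 and 23.6 CPM and Adap1 46.7 and 31.2 CPM. The 10 points share libraries, depth and group differences, and these values are descriptions.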

How the data were processed

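Total RNA from the iWAT of single mice was sequenced after rRNA depletion. Reads were mapped to mm10 by the authors in CLC Genomics Workbench, and the deposited files give raw counts of exon, intron and junction reads per gene, together with RPKM values that the authors divided by exon length and library total. Counts were used for tests and deposited RPKM for comparing levels between genes. The 10 members and all lists were chosen with earlier results of these data known.

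In R 4.3.3, counts passing filterByExpr were TMM-normalized and tested with the two-sided quasi-likelihood F test of edgeR 4.0.16, separately for F1 and F0, and in 1 fit of all 10 libraries for the interaction and the CD groups. P-values were adjusted over all genes tested (Benjamini-Hochberg, threshold 0.05). The SE was the absolute log2 fold change divided by the square root of F. P-values measure the spread between these mice. The scripts were tested on simulated data. Named genes were all members, up to 5 pathway genes past the threshold per comparison and the 3 genes most correlated with Tbxas1 and with Ptges (log2 CPM, offset 0.5). Alternatives were DESeq2 1.42.0, other filters (none, or at least 10 reads), a replicate block and leaving out each mouse. For exon reads they were also the size factors of DESeq2 and other read classes. All groups in 1 fit was an alternative for the F1 and F0 exon comparisons only, and the exon share covariate for F1 exon reads only. Uniquely matching intron reads were added after seeing the data.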

Additional observations from a re-analysis of the deposited data

How the results depend on the processing

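Of 354 values of 53 tests on members under alternatives that kept every mouse, 335 kept their direction and their side of the threshold, 15 passed it where the reported value did not and 1 no longer passed it. The remaining 3 turned their sign: Ptges in F1 with the exon share as covariate (0.58), and Tbxas1 in F0 with uniquely matching exon reads (0.020) and total gene reads (0.20). The causes were not tested. Of 360 values with 1 mouse left out, 341 kept both, 2 lost and 2 gained a call, and 15 turned their sign. These came from results whose values with a mouse left out ranged around 0: Tbxas1 in F0 (−0.28 to 0.22), Ptgis in the interaction (−0.18 to 0.24) and in F1 introns (−0.34 to 0.10), Ptgds in the interaction (−2.21 to 3.54), Hpgds between the CD groups (−0.024 to 0.38), and in F0 introns Hpgd (−0.12 to 0.14), Hpgds (−0.028 to 0.097) and Alox5ap (−0.018 to 0.96).

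The log2 fold change of Tbxas1 in F1 was −1.13 with uniquely matching exon reads, −0.87 with total gene reads, −1.04 without a filter and −1.05 with all 4 groups in 1 fit, all past the threshold, and −1.18 to −0.83 with a mouse left out. Members called in F1 in these 4 fits numbered 1, 1, 3 and 1, beside 233, 119, 798 and 339 of all genes. With any mouse left out, 0 members were called. Genes called in F1 numbered 341 in DESeq2, 798 without a filter, 339 with all 4 groups, 260 with the replicate block, 11 with the exon share as covariate and 18 to 510 with a mouse left out, against 164. In F0 they numbered 1343 without a filter, 175 with all 4 groups, 1391 with the replicate block and 107 to 475 with a mouse left out, against 364, and members called 2, 0 and 2, and 1 with any mouse left out. For the interaction, 341 genes were called in DESeq2, 890 without a filter and 19 to 395 with a mouse left out, against 189, and members called were 1 with total gene reads, 2 without a filter and 0 with any mouse left out. Between the CD groups, 1 member was called with total gene reads and 1 without a filter, 793 to 3030 genes and 0 to 1 members with a mouse left out. In F1 introns, 178 genes were called in DESeq2, 677 without a filter (3 members), 100 with the replicate block, 124 with uniquely matching intron reads, and 5 to 190 (0 to 1 members) with a mouse left out, against 57. In F0 introns, 1106 were called without a filter, 803 with the replicate block and 289 to 964 (0 members) with a mouse left out, against 499.

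In F1 the replicate numbers did not pair the mice: same-numbered mice had correlations of −0.01, 0.01 and 0.03 of their deviations from the group means. In F0, with 2 mice per diet, these correlations can only mirror each other (0.05 and −0.05) and cannot decide this. With the replicate block the log2 fold change of Tbxas1 in F1 was −1.02 (adjusted p 0.0626 in edgeR). That of Hpgd in F0 was 0.44 (adjusted p 0.031 in edgeR), past the threshold in a fit that called 1391 genes against 364 without the block.

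With 3 mice against 3 and 2 against 2, few reads limit Ptgs2 and Ptgds most, and differences in Tbxas1 and Alox5 rest on 19 to 112 exon reads per mouse.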
